A study of Mus musculus with 89 samples.

Results

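Dppa2, Dppa3, Dppa4 and Dppa5a are the 4 members of the developmental pluripotency associated genes examined here, chosen as the rows of the count table that carry exactly these symbols, 4 of 54146 gene rows. They were followed in 20 RNA-seq libraries of mouse embryonic stem cells (ESCs) that form 8 groups, 4 states of the nuclear receptors Esrrb and Nr5a2 in each of 2 media. The cells are named EKOiE. In all of them, controls included, endogenous Esrrb is knocked out and Esrrb is supplied by a transgene that responds to doxycycline (Dox). EKOiE cells kept with Dox at 1 µg/ml form the control state, +E+N, and −E denotes these cells when Dox had been absent for 2 days. The NrKO derivative, in which the exon that encodes the DNA-binding domain of Nr5a2 is disrupted on both alleles, gives −N with Dox and −E−N once Dox had been absent for 2 days. Cells were grown with the cytokine LIF and either fetal calf serum (FCS/LIF, 2 libraries a state) or 2 kinase inhibitors (2i/LIF, 3 libraries a state). The labels do not say which NrKO clone a library came from, so loss of Nr5a2 and a property of the NrKO line cannot be told apart, and neither can the medium and the batch of culture and sequencing. The ChIP-seq samples of the series were not analysed here.

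The members share a naming history rather than a protein family: all were picked out as genes expressed in pluripotent cells together with Pou5f1. Dppa2 and Dppa4 encode SAP-domain nuclear proteins that work as a heterodimer, bind CpG-rich promoters, keep developmental genes competent for activation and switch on the genes of zygotic genome activation through Dux. Dppa3, also called Stella or PGC7, is a maternal and germ cell protein that shields 5-methylcytosine from Tet3 in the zygote and keeps Uhrf1, and with it maintenance methylation, away from chromatin. Dppa5a, also called Esg1, encodes a KH-domain RNA-binding protein that is abundant in ESCs.

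By the GENCODE annotation of the mm10 build, Dppa4 (chr16:48283733-48294237) and Dppa2 (chr16:48303908-48319723) lie side by side on the forward strand, 9671 bp apart. Dppa3 (chr6:122626410-122630272) lies on the forward strand between Gdf3 and Nanog. Dppa5a (chr9:78367052-78368177) lies on the reverse strand, 7932 bp from Ooep. The genome also holds copies of these genes: of the 100-base stretches of their transcripts, 23.9% in Dppa2, 14% in Dppa4, 3.08% in Dppa5a and 0% in Dppa3 also occur in another gene's transcripts. The copy with the most reads relative to its parent, Gm9788, held at most 2.64% of the estimated count of Dppa2 in any library. The pseudogenes Dppa5b and Dppa5c were at 0 counts in all 20 libraries, and Dppa1 and Dppa3-ps had at most 10 and 6 counts.

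Estimated counts summed to between 36514172 and 45443379 in the 8 FCS/LIF libraries and between 26653035 and 32526534 in the 12 2i/LIF libraries. Each member had at least 223 counts in every library, so none depended on the filter of 20 counts in all libraries of at least 1 state. The study describes the libraries of a state as independent experiments, and the labels only number them. Esrrb, the withdrawn gene, reached 320 ± 58.9 CPM (counts scaled to library size, SD, n = 2) in FCS/LIF control cells against 70.7 ± 6.52 in −E and 30.5 ± 1.63 in −E−N. In 2i/LIF control cells held 568 ± 54.6 CPM (SD, n = 3) and −E−N cells 145 ± 35.3, but at 413 ± 34.4 in −E, a log2 fold change of -0.46 that was not called (edgeR adjusted p = 0.116). Reads of Esrrb may come from the transgene or the disrupted gene, and Nr5a2 reads include the disrupted alleles. The RNA therefore does not by itself bear out the label of the 2i/LIF libraries labelled −E, which are called −E below by that label. By ChIP-seq, the study reports that Esrrb binding in EKOiE cells of this medium was lost after Dox withdrawal. Those ChIP-seq samples are separate from the RNA libraries and were not analysed here. Nr5a2 was at 39.0 ± 2.77 CPM in FCS/LIF +E+N and 26.7 ± 1.07 in −N, and at 69.8 ± 8.71 and 67.6 ± 7.88 in 2i/LIF.

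The members stood at very different levels. On the TPM scale, which accounts for transcript length, Dppa5a was at 5385 ± 28.1 TPM (SD, n = 2) in FCS/LIF +E+N and 4929 ± 125 (SD, n = 3) in 2i/LIF +E+N. It ranked 23rd of 25580 genes with a signal in the first and 28th of 24902 in the second. Dppa2, Dppa3 and Dppa4 lay close together in FCS/LIF +E+N, at 94.5 ± 0.856, 98.3 ± 9.41 and 129 ± 4.16 TPM. In 2i/LIF +E+N they had moved apart, to 113 ± 15.8, 22.1 ± 6.50 and 55.8 ± 8.58 TPM. Dppa3 covered the widest range of ranks, from 4871st in 2i/LIF +E+N to 484th in 2i/LIF −E−N.

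**Figure D1:**
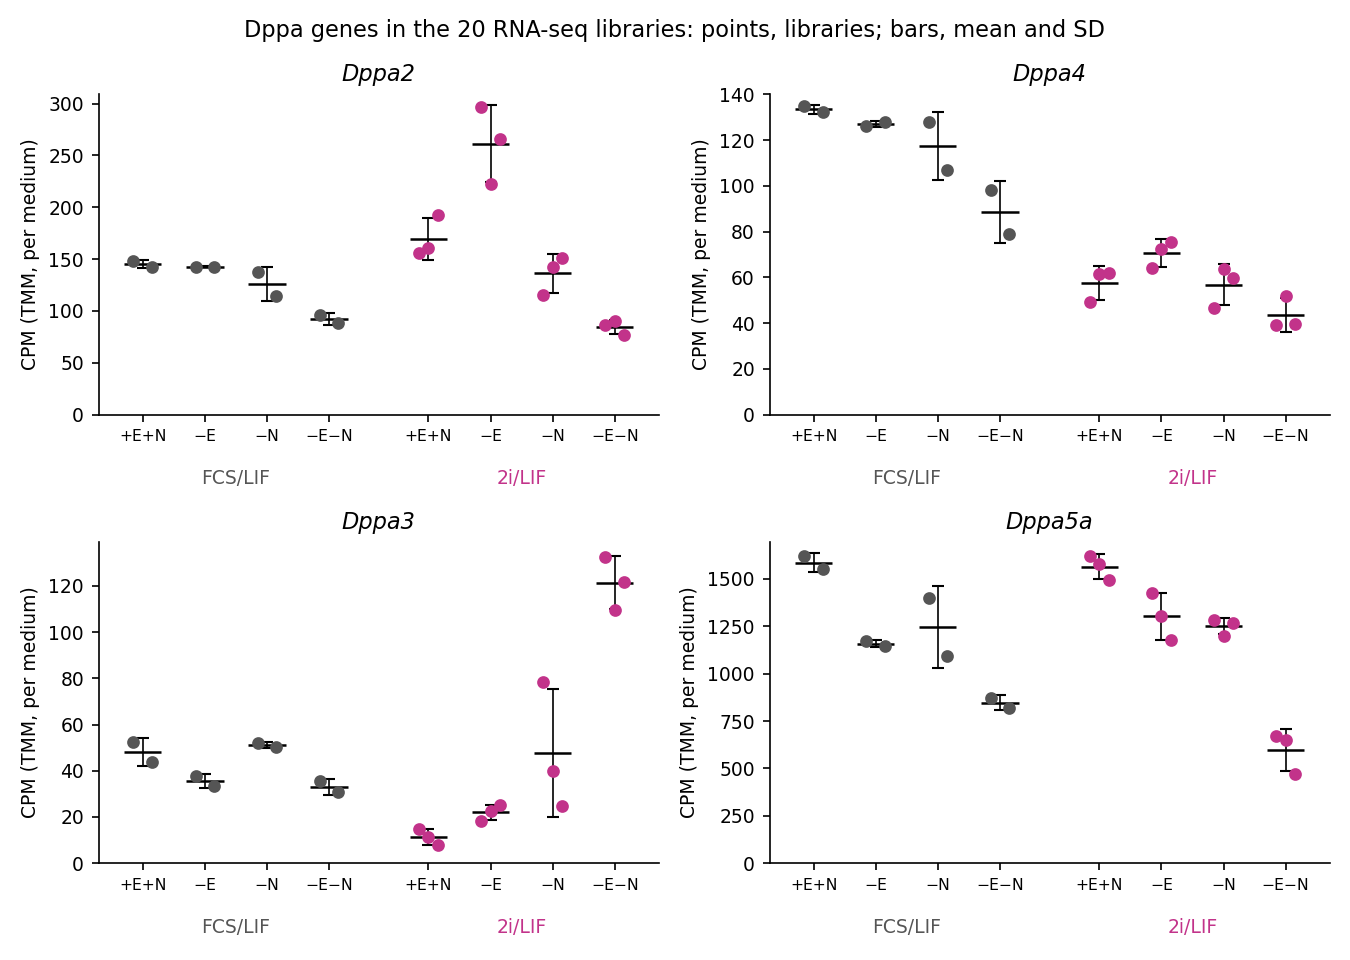
CPM of Dppa2, Dppa4, Dppa3 and Dppa5a (vertical axes, each from 0, TMM-normalized within each medium) in the 4 states of FCS/LIF (grey) and 2i/LIF (magenta). Points are libraries and bars are the mean and SD. In 2i/LIF the 3 −E−N libraries of Dppa3 lie between 109.8 and 133 CPM, above all others, while those of Dppa2 and Dppa5a lie below all others of that medium.

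A gene was called where its edgeR adjusted p was under 0.01 and its fold change over 1.5, with no fold limit for an interaction or a difference between media. In FCS/LIF, loss of either receptor alone moved no member past these limits. In −E, 0 of 4 members were called, against 5.76% of the 15636 genes tested, with 2 members at an unadjusted edgeR p under 0.05 and 0 called by DESeq2 or by limma on log2(TPM + 1). In −N, 0 of 4 were called, against 0.173% of genes, again with 2 at an unadjusted p under 0.05 and 0 called by DESeq2 or limma. Loss of both receptors lowered 3 of 4 members, Dppa2, Dppa4 and Dppa5a, against 18.8% of genes called in either direction. Only Dppa3 was called, lower, in −E−N against −N (1 of 4, against 10.1% of genes), and only Dppa2, lower, in −E−N against −E (1 of 4, against 5.05%). For the interaction of both losses 0 of 4 were called, against 0.032% of genes, with 1 member at an unadjusted p under 0.05 and 0 called by DESeq2 or limma. These comparisons share their control libraries.

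In 2i/LIF, Dppa3 was higher in −E−N, where Dppa2 and Dppa5a were lower. In −E, 0 of 4 members were called, against 1.55% of the 14355 genes tested, with 3 at an unadjusted edgeR p under 0.05, 1 called by DESeq2 (Dppa2) and 0 by limma. In −N only Dppa3 was called, higher (1 of 4, against 3.65% of genes). In −E−N, Dppa3 was called higher and Dppa2 and Dppa5a lower (3 of 4, against 18.6% of genes). Against −N, −E−N libraries had Dppa2 and Dppa5a called lower (2 of 4, against 6.76%). Against −E all 4 were called, Dppa3 higher and the other 3 lower (against 13.1%). For the interaction, 1 of 4 was called, Dppa2, against 0.307% of genes.

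Between media, Dppa3 and Dppa4 were called lower in 2i/LIF control cells than in FCS/LIF control cells (2 of 4, against 34.7% of the 16147 genes tested). The response in FCS/LIF minus the response in 2i/LIF was called for no member in −E (0 of 4, against 1.06% of genes, with 2 at an unadjusted edgeR p under 0.05 and 0 called by DESeq2 or limma). It was also called for none in −N (0 of 4, against 0.743%, with 1 at an unadjusted p under 0.05, 1 called by DESeq2 and 0 by limma). In −E−N it was called for Dppa3 (1 of 4, against 13.2%).

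**Figure D2:**
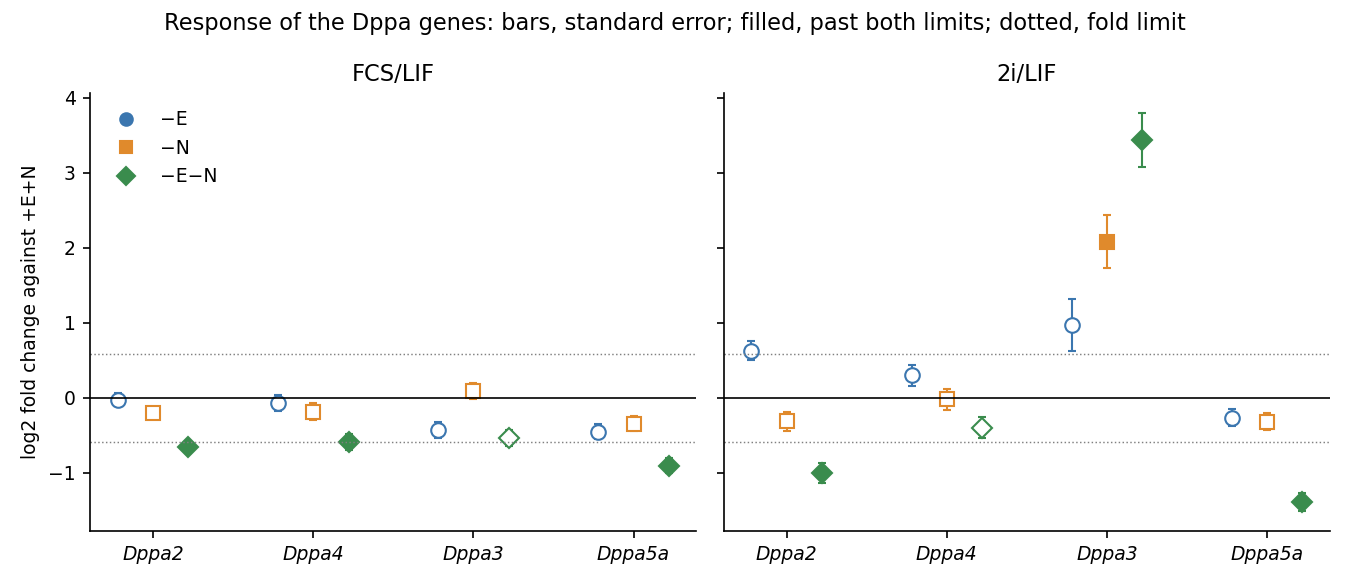
Log2 fold change against +E+N (vertical axis) of the 4 Dppa genes in −E, −N and −E−N, in FCS/LIF (left) and 2i/LIF (right), with bars of 1 standard error. Filled symbols passed both limits and dotted lines mark the fold limit. Dppa3 reaches 3.43 in 2i/LIF −E−N and -0.54 in FCS/LIF −E−N.

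Dppa3, the member that acts on DNA methylation, was the member whose −E−N response was called as different between media. In FCS/LIF its 2 control libraries stood at 52.4 and 43.7 CPM, beside 51.9 and 50.2 for −N, 37.5 and 33.4 for −E, and 35.5 and 30.6 for −E−N. Both states without Dox lay below both states with Dox, and within each of those pairs the libraries overlapped. The log2 fold change against +E+N was -0.44 (standard error 0.11, edgeR adjusted p = 0.0217) in −E and -0.54 (standard error 0.11, edgeR adjusted p = 0.00337) in −E−N, the latter below the fold limit. It was 0.09 (edgeR adjusted p = 0.747) in −N. Against −N, −E−N libraries held 1.54-fold less Dppa3 (log2 -0.63, edgeR adjusted p = 0.00285). That call was lost without the first −N library (log2 -0.60, edgeR adjusted p = 0.0140) and without the second −E−N library (log2 -0.55, edgeR adjusted p = 0.0289), while the −E−N difference against +E+N was called without the second +E+N library (log2 -0.66) or the first −E−N library (log2 -0.67).

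In 2i/LIF the same gene stood at 14.8, 11.1 and 7.69 CPM in +E+N and at 18.3, 22.7 and 25.0 in −E. It was at 78.4, 39.7 and 24.6 CPM in −N and at 133, 109.8 and 122 in −E−N. No −E−N library overlapped another state and no +E+N library did either, whereas the −N libraries were widely spread and the lowest lay within −E. Against +E+N, Dppa3 was 10.8-fold higher in −E−N (log2 3.43, standard error 0.36, edgeR adjusted p = 1.29e-05) and 4.24-fold higher in −N (log2 2.08, standard error 0.35, edgeR adjusted p = 0.00261). The difference in −E, a log2 fold change of 0.97 (standard error 0.35), was not past the limits (edgeR adjusted p = 0.133). Without the second or the third +E+N library the −N difference was no longer called (log2 2.08 and 1.87, edgeR adjusted p = 0.0160 and 0.0150).

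Dppa3 was also 5.51-fold higher in −E−N than in −E in 2i/LIF (log2 2.46, edgeR adjusted p = 0.000198). Against −N the log2 fold change of 1.35 (standard error 0.32) missed the limit at an edgeR adjusted p of 0.0120. It passed it without the first −N library, the one at 78.4 CPM (log2 1.92, edgeR adjusted p = 0.000478), and with DESeq2 (adjusted p = 0.00627). The interaction was 0.38 with a standard error of 0.47 (edgeR adjusted p = 0.789), with 0 as the value at which both separate differences add up on the log2 scale. In bulk RNA, more cells that express Dppa3 and more Dppa3 RNA per cell cannot be told apart.

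Before any loss, Dppa3 was 4.10-fold lower in 2i/LIF than in FCS/LIF (log2 -2.03, standard error 0.33, edgeR adjusted p = 4.77e-05). The response to loss of both receptors in FCS/LIF minus that in 2i/LIF was -3.94 on the log2 scale (standard error 0.47, edgeR adjusted p = 2.03e-05), and it stayed between -4.20 and -3.72 with each library left out. The order of the media thus differed between states. Dppa3 was at 242 ± 19.8 TPM (SD, n = 3) in 2i/LIF −E−N, against 76.4 ± 8.74 (SD, n = 2) in FCS/LIF −E−N. The corresponding differences of response were -1.39 (edgeR adjusted p = 0.117) in −E and -1.98 (edgeR adjusted p = 0.0270) in −N, the latter called by DESeq2 (adjusted p = 0.00795) and without the third 2i/LIF −N library (log2 -2.29, edgeR adjusted p = 0.00268). With the replicate number as a block the −N difference was also called (log2 -1.93, edgeR adjusted p = 0.00356).

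Dppa2, the first partner of the heterodimer, stood in FCS/LIF at 148 and 142 CPM in control libraries, beside 142 and 143 for −E, 138 and 115 for −N, and 96.2 and 88.1 for −E−N. Only −E−N fell well below the rest, by 1.58-fold against +E+N (log2 -0.66, standard error 0.09, edgeR adjusted p = 0.000374). Against −E it was 1.55-fold lower (log2 -0.63, edgeR adjusted p = 0.00182). This second call was lost without the first −E library (edgeR adjusted p = 0.0274), the second −E library (0.0180) or the second −E−N library (0.0310), at log2 values of -0.65, -0.64 and -0.59.

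In 2i/LIF, Dppa2 stood at 155.5, 160.4 and 193 CPM in +E+N and at 296, 222 and 266 in −E. It was at 115, 143 and 151 CPM in −N and at 86.4, 90.6 and 76.7 in −E−N. The 4 states did not overlap and were ordered −E, +E+N, −N and −E−N from high to low. The share of all genes whose states do not overlap was not counted. The −N difference from +E+N was not called (log2 -0.32, standard error 0.13, edgeR adjusted p = 0.137). The −E value, a log2 fold change of 0.62 (standard error 0.13), was past the fold limit with an edgeR adjusted p of 0.0124. It was called by DESeq2 (adjusted p = 9.67e-05) and without the second −E library (log2 0.73, edgeR adjusted p = 0.00969) or the first −N library (log2 0.62, edgeR adjusted p = 0.00772).

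With both receptors gone in 2i/LIF, Dppa2 was 2.01-fold lower than in +E+N (log2 -1.004, standard error 0.13, edgeR adjusted p = 5.77e-05) and 3.09-fold lower than in −E (log2 -1.63, edgeR adjusted p = 2.98e-06). It was 1.61-fold lower than in −N (log2 -0.69, edgeR adjusted p = 0.00280), a call lost without the second −N, the third −N or the third −E−N library, at log2 values of -0.65, -0.62 and -0.63. The interaction, which is the difference of −E−N from −N minus that of −E from +E+N, was -1.31 (standard error 0.18, edgeR adjusted p = 0.00611). It lay between -1.42 and -1.21 with each library left out, but 8 of those 12 fits, and limma on log2(TPM + 1), gave an adjusted p above the limit (0.0133 for limma).

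Dppa4, the other partner, stood in FCS/LIF at 135 and 132 CPM in control libraries, beside 126 and 128 for −E, 128 and 107 for −N, and 98.2 and 78.8 for −E−N. Its −E−N libraries were the lowest, 1.51-fold below +E+N (log2 -0.59, standard error 0.11, edgeR adjusted p = 0.00227). The value sat just inside the fold limit. It was not called without the first +E+N library (log2 -0.57, edgeR adjusted p = 0.0112) or the second −E−N library (log2 -0.45, edgeR adjusted p = 0.0200). Without the first −E−N library, Dppa4 was also called lower against −N (log2 -0.61) and against −E (log2 -0.72).

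In 2i/LIF, Dppa4 stood at 49.1, 61.7 and 61.7 CPM in +E+N and at 64.0, 72.3 and 75.6 in −E. It was at 46.8, 63.8 and 59.7 CPM in −N and at 39.0, 52.0 and 39.6 in −E−N. The −E libraries lay above those of the other states, which overlapped one another, but the gap was narrow. The lowest −E library was at 64.0 CPM and the highest −N library at 63.8. The −E difference from +E+N was not called (log2 0.30, standard error 0.14, edgeR adjusted p = 0.255). Against −E, −E−N libraries held 1.62-fold less Dppa4 (log2 -0.70, standard error 0.14, edgeR adjusted p = 0.00249), a call lost without the first or the third −E−N library or the second or the third −E library, at log2 values between -0.68 and -0.63. Against +E+N the log2 fold change of -0.40 (edgeR adjusted p = 0.0375) was not past the limits. The larger difference was between media: control cells had 2.23-fold less Dppa4 in 2i/LIF (log2 -1.16, standard error 0.15, edgeR adjusted p = 3.22e-06), while Dppa2 differed by 0.28 (standard error 0.13, edgeR adjusted p = 0.0649).

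The RNA ratio of the 2 partners therefore differed between media, which cannot be told apart from the batch of culture and sequencing. The ratio of Dppa2 TPM to Dppa4 TPM lay between 0.666 and 0.762 in all 8 FCS/LIF libraries and between 1.204 and 3.16 in all 12 2i/LIF libraries. In FCS/LIF the 4 states differed little, the lowest mean being 0.696 ± 0.0422 (SD, n = 2) for −E−N and the highest 0.761 ± 0.000793 for −E. In 2i/LIF the mean ratio was 2.04 ± 0.218 (SD, n = 3) for control cells, 2.54 ± 0.565 for −E, 1.63 ± 0.0863 for −N and 1.34 ± 0.140 for −E−N. The −E−N ratios overlapped neither −N nor the control. For these neighbours on chromosome 16, the correlation over the 8 group means of log2 CPM was 0.101 (Pearson, a description over groups that share media). That value spans both media, between which the ratio differed. Within each medium both genes ranked the 4 states alike by mean CPM, although some states next in order overlapped. From high to low the order was +E+N, −E, −N and −E−N in FCS/LIF, and −E, +E+N, −N and −E−N in 2i/LIF.

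**Figure D3:**
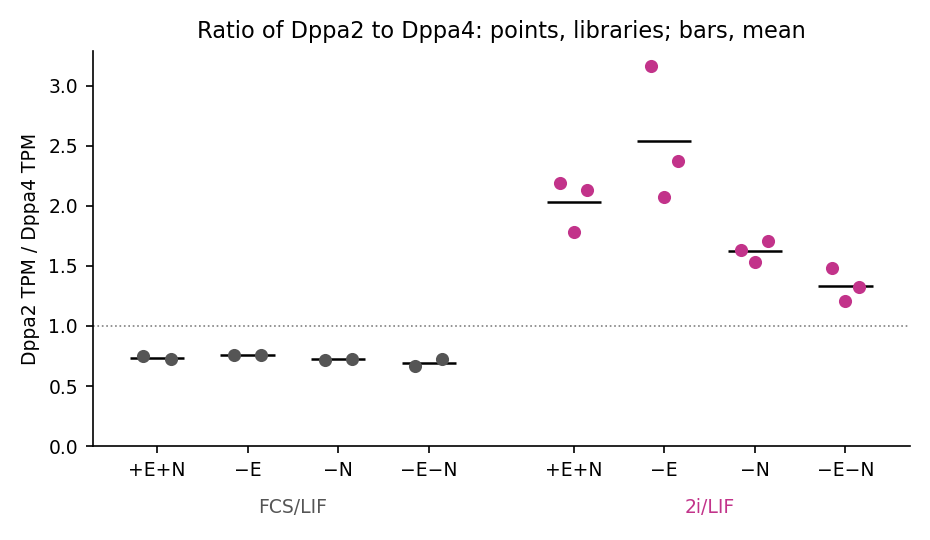
Ratio of Dppa2 TPM to Dppa4 TPM (vertical axis, from 0) in each library (points) with the mean of each state (bars), for FCS/LIF (grey) and 2i/LIF (magenta). The dotted line marks equal TPM. All FCS/LIF libraries lie at or below 0.762 and all 2i/LIF libraries at or above 1.204.

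Dppa5a, the RNA-binding member, fell in both media. In FCS/LIF its control libraries held 1622 and 1551 CPM, beside 1171 and 1147 for −E, 1401 and 1095 for −N, and 874 and 818 for −E−N. All libraries of the other states lay below both control libraries, with −E−N lowest. Dppa5a was 1.88-fold lower in −E−N (log2 -0.91, standard error 0.10, edgeR adjusted p = 0.000147), a call kept with every library left out. The differences in −E (log2 -0.45, edgeR adjusted p = 0.0135) and in −N (log2 -0.35, edgeR adjusted p = 0.120) were not past the limits. Against −N, −E−N was lower by a log2 of -0.56 (edgeR adjusted p = 0.00337), under the fold limit, and was called without the first −E, second −E or second −N library (log2 -0.59, -0.59 and -0.73).

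In 2i/LIF, Dppa5a stood at 1620.5, 1581 and 1493 CPM in +E+N and at 1427, 1302 and 1179 in −E. It was at 1283, 1201 and 1268 CPM in −N and at 671, 648 and 469.5 in −E−N. The −E and −N libraries overlapped each other below the control, and −E−N lay well below both. Against +E+N, −E−N libraries held 2.63-fold less Dppa5a (log2 -1.39, standard error 0.12, edgeR adjusted p = 2.22e-06), against −N 2.10-fold less (log2 -1.07, edgeR adjusted p = 8.18e-05) and against −E 2.19-fold less (log2 -1.13, edgeR adjusted p = 2.03e-05). The interaction, -0.80 (standard error 0.16), missed the limit in edgeR (adjusted p = 0.0324) and passed it in DESeq2 (adjusted p = 0.000237). It also passed with the replicate number as a block (-0.81, edgeR adjusted p = 0.00139). Control cells of both media differed by 0.04 on the log2 scale (standard error 0.13, edgeR adjusted p = 0.797). Even in 2i/LIF −E−N, at 1890 ± 335 TPM (SD, n = 3), Dppa5a ranked 104th of 25367 genes.

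The genes of zygotic genome activation that the Dppa2 and Dppa4 proteins are known to switch on rose in 2i/LIF −E−N, where Dppa2 RNA fell. Of 19 listed genes (Dux, Zscan4, Usp17l, Tcstv and Tdpoz genes and Zfp352), 18 were in the table. Their summed level in 2i/LIF was 9.78 to 14.9 TPM for control libraries, 15.7 to 35.8 for −E, 35.8 to 89.4 for −N and 123 to 334 for −E−N. In −E−N, 13 of 13 tested genes were called higher, against 18.6% of all genes called in either direction (median log2 fold change 3.77, against 0.01 over all genes tested). However, 5 of these 13 reached the count minimum only in a state other than the control. All 8 that reached it in the control libraries were called higher, with a median of 3.84. Zscan4e rose by 4.62 (standard error 0.57, edgeR adjusted p = 4.88e-05), Zscan4b by 4.46 and Zscan4f by 4.25, all of the Zscan4 family active at the 2-cell stage, and Tcstv3 by 4.08. In −N 2 of 13 were called higher and in −E 0 of 13, against 3.65% and 1.55% of genes, with 12 and 2 at an unadjusted edgeR p under 0.05.

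In FCS/LIF the same genes summed to 34.8 and 59.4 TPM for control libraries, 87.1 and 147 for −E, 29.1 and 26.7 for −N, and 55.7 and 75.1 for −E−N. In −E 3 of 16 were called higher (median 1.27, against 0.00 over all genes tested, of which 5.76% were called in either direction). All 16 were at an unadjusted edgeR p under 0.05, as were 5275 of the 15636 genes tested. Of the 12 that reached the count minimum in control libraries, 3 were called higher in −E, with a median of 1.26. In −E−N 0 of 16 were called, against 18.8% of genes, with 1 at an unadjusted edgeR p under 0.05. In −N 0 of 16 were called, against 0.173% of genes (median -0.88, with 10 at an unadjusted p under 0.05). The −E−N response of 12 of 16 was called as lower in FCS/LIF than in 2i/LIF, against 13.2% of genes called in either direction. Zscan4e differed by -4.30 (standard error 0.75, edgeR adjusted p = 0.000572). The count minimum was reached in control libraries by 12 of the listed genes in FCS/LIF and by 8 in 2i/LIF, so some passed it only through other states. The Zscan4 and Usp17l genes are near-identical copies among which reads can be split, so values of 1 copy are uncertain. Dppa3 and this sum were both highest in 2i/LIF −E−N, but within states they were not always ordered alike. In 2i/LIF −N the library with the most Dppa3, 150.0 TPM, had the lowest sum, 35.8 TPM. The −N library with the least Dppa3, 50.7 TPM, had the highest sum, 89.4 TPM. Control libraries of 2i/LIF also ran in opposite orders. In 2i/LIF −E both rose together, Dppa3 from 32.8 to 50.1 TPM and the sum from 15.7 to 35.8 TPM. In each 2i/LIF state the sum was lowest in the first library and highest in the third.

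**Figure D4:**
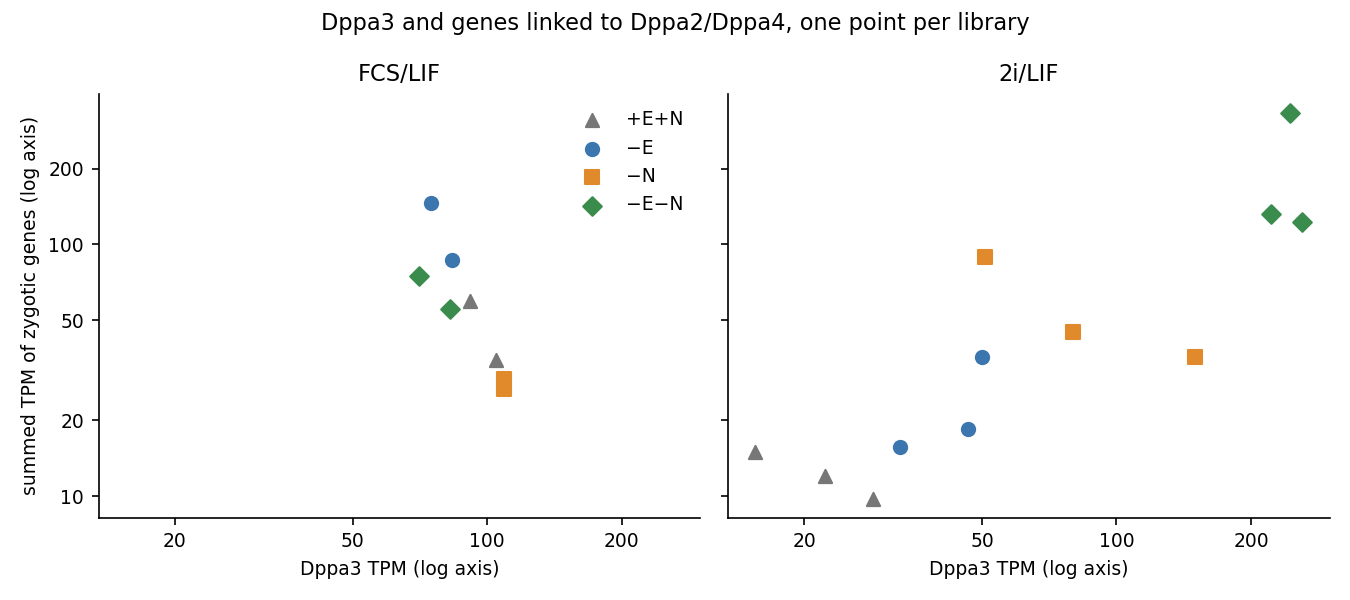
Dppa3 TPM (horizontal log axis) against the summed TPM of the 18 zygotic genes (vertical log axis), 1 point per library, in FCS/LIF (left) and 2i/LIF (right), with symbols for the 4 states. The 3 libraries of 2i/LIF −E−N lie apart, at 221 to 261 TPM of Dppa3 and 123 to 334 TPM of the sum.

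A further 11 germline and developmental genes, among them the Dppa2 and Dppa4 targets Mael, Syce1 and Nkx2-5, were called about as often as all genes. In −E−N, 2 of 11 tested were called higher in FCS/LIF (median 0.00), against 18.8% of all genes called in either direction. In 2i/LIF 1 of 10 was called higher and 1 lower (median -0.22), against 18.6%. Taf7l, a testis TFIID subunit, rose in both media, by 1.67 in FCS/LIF and 1.38 in 2i/LIF. Ddx4, a germ cell RNA helicase, rose by 0.61 in FCS/LIF, and Dazl, a germ cell RNA-binding protein, fell by 1.76 in 2i/LIF. Mael and Syce1 were called in neither medium, and Nkx2-5 was not called in FCS/LIF and was under the count minimum in 2i/LIF.

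Among 10 genes of the DNA methylation machinery around Dppa3, losses outnumbered gains in −E−N in both media. In FCS/LIF, 5 of 10 were called lower and 1 higher (median -0.51, against 0.00 over all genes tested, of which 18.8% were called in either direction). In 2i/LIF, 4 were called lower and 2 higher (median -0.33, against 0.01, with 18.6% of all genes called). The 5-methylcytosine dioxygenases Tet2 and Tet1 fell in both media, with log2 fold changes of -2.20 in FCS/LIF and -1.46 in 2i/LIF for Tet2, and -1.73 and -1.32 for Tet1. Zfp57, which guards imprints, fell likewise (log2 -2.07 and -0.73). Uhrf1, the maintenance factor that Dppa3 binds, fell by 0.64 in 2i/LIF (standard error 0.12, edgeR adjusted p = 0.000818), and in FCS/LIF its log2 fold change of -0.38 was under the fold limit. The de novo methyltransferase cofactor Dnmt3l rose by 1.79 and Dnmt3b by 1.23 in 2i/LIF, while in FCS/LIF they were at 0.31 and 0.30, under the fold limit. With 1 receptor lost in 2i/LIF, 2 of the 10 genes were called higher in −E, against 1.55% of all genes. In −N 1 of 10 was called higher, against 3.65%, and 0 were called lower in either state. The maintenance enzyme Dnmt1 had log2 fold changes of 0.03 (FCS/LIF) and -0.19 (2i/LIF), neither called.

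Ooep, the nearest gene to Dppa5a and a KH-domain relative that belongs to the maternal complex of the oocyte, moved with it. Ooep was 24.4 ± 2.38 CPM in FCS/LIF −E−N against 56.4 ± 3.19 in +E+N (log2 -1.21, edgeR adjusted p = 2.85e-05). In 2i/LIF it was 24.6 ± 1.88 against 93.3 ± 8.60 CPM (log2 -1.92, edgeR adjusted p = 1.94e-07). Khdc3, another member of that complex, fell by 5.46 in FCS/LIF and by 8.68 in 2i/LIF. Falls of that size may rest on few counts in −E−N, so their exact size is uncertain. In FCS/LIF, 3 relatives reached the count minimum in control libraries and 2 did in −E−N. Of the 8 relatives listed, 2 of 3 tested were called lower in FCS/LIF −E−N, and in 2i/LIF 2 of 6 lower and 3 higher. The 3 that were higher, Khdc1a, Khdc1b and Khdc1c, reached the count minimum only outside the control and are close copies of one another. Within 250 kb of Dppa5a, 3 of 9 tested genes were called lower in FCS/LIF −E−N (median -0.36) and 6 of 11 in 2i/LIF −E−N (median -0.92), with none higher in either, against 18.8% and 18.6% of all genes called in either direction.

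Around the other members, Gdf3, next to Dppa3, stood at 111 ± 5.78 CPM in 2i/LIF +E+N and 109.8 ± 9.80 in −E−N (log2 -0.02, standard error 0.09, edgeR adjusted p = 0.915). Nanog, on the other side of Dppa3, fell by 1.37 in the same comparison (edgeR adjusted p = 5.61e-07) while Dppa3 rose. Of the genes tested within 250 kb of Dppa3, 1 of 8 was called in 2i/LIF −E−N, lower, against 18.6% of all genes. In FCS/LIF −E−N 1 of 9 was called higher and 1 lower, against 18.8%, so both shares lay near the background. Morc1, a germline ATPase and the nearest tested gene beyond Dppa2, fell by 1.96 in FCS/LIF −E−N (edgeR adjusted p = 1.6e-05), and in 2i/LIF its log2 fold change was -0.21 (edgeR adjusted p = 0.0526).

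The pluripotency network around the members fell in −E−N of both media. Of 10 naive pluripotency transcription factors, the withdrawn Esrrb among them, 9 were called lower in FCS/LIF −E−N (median -2.37) and 9 in 2i/LIF −E−N (median -1.37). Of all genes tested, 18.8% and 18.6% were called there in either direction. Nr0b1, a nuclear receptor corepressor, fell (log2 -5.88 and -6.64), and so did Klf4 (log2 -3.21 and -1.77). Of 5 markers of undifferentiated ESCs, all detected in every state, 4 were called lower in FCS/LIF −E−N and 3 in 2i/LIF −E−N, against the same shares. Their summed level went from 2389 to 2472 TPM in FCS/LIF +E+N down to 1598 to 1798 in −E−N, and from 2215 to 2586 TPM in 2i/LIF +E+N down to 1155 to 1524 in −E−N.

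Markers of other cell types moved in the same libraries. Their counts stand beside 18.8% of all genes called in either direction in FCS/LIF −E−N and 18.6% in 2i/LIF −E−N. A count such as 1 of 5 lies near that share. The 5 trophectoderm markers summed to 16.3 to 20.9 TPM in FCS/LIF +E+N and 70.6 to 95.0 in −E−N, and to 4.77 to 6.27 TPM in 2i/LIF +E+N and 31.1 to 44.7 in −E−N. In −E−N, 5 of 5 were called higher in FCS/LIF, and 3 of 4 tested higher and 1 lower in 2i/LIF. Of those that reached the count minimum in control libraries, 4 of 4 were called higher in FCS/LIF, and 2 of 3 higher and 1 lower in 2i/LIF. The 5 primed epiblast markers summed to 2.27 to 3.00 TPM in 2i/LIF +E+N and 12.99 to 15.4 in −E−N, with 2 of 4 called higher and 1 lower, and 1 higher and 1 lower of the 2 that reached the minimum in control libraries. In FCS/LIF they summed to 54.6 to 63.1 TPM in +E+N and 68.2 to 82.3 in −E−N, with 3 of 5 called higher and 1 lower. The 6 primordial germ cell markers, cells in which Dppa3 is a defining gene, went from 144 to 172 TPM in 2i/LIF +E+N to 86.2 to 103 in −E−N, with 0 called higher and 2 lower by edgeR and 3 of 6 at an unadjusted p under 0.05. In FCS/LIF they went from 56.1 to 62.9 TPM up to 73.7 to 77.3, with 1 called higher and 2 lower. The 5 primitive endoderm markers summed to 9.92 to 14.3 TPM in FCS/LIF +E+N and 23.6 to 25.8 in −E−N, with 1 of 5 called higher, and to at most 5.01 TPM in every 2i/LIF library, with 1 of 4 called higher and 1 lower in −E−N. The 4 mesoderm markers summed to at most 4.16 TPM in FCS/LIF and 10.3 in 2i/LIF libraries, and the 3 neural markers to at most 6.84 and 3.29, with Neurog2 at 0 counts in 3 of the 4 states of 2i/LIF. In FCS/LIF the mesoderm sum went from 0.97 to 1.38 TPM in +E+N up to 2.92 to 4.16 in −E−N. The neural sum there went from 5.63 to 6.02 TPM down to 4.32 to 4.87. In −E−N, 1 of 3 mesoderm markers tested was called higher in FCS/LIF, and 1 higher and 1 lower in 2i/LIF. Of 2 neural markers, 1 was called higher and 1 lower in FCS/LIF, and 1 higher in 2i/LIF. Neither the FCS/LIF mesoderm nor the 2i/LIF neural call was of a marker at the count minimum in control libraries. The part of these cells in the values of the Dppa genes was not tested.

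The genes whose profile over the 8 group means was most like that of each member were not other members. Among 11737 genes averaging 100 counts or more, these were Arhgef15, Senp3 and Atp11b for Dppa2, with Pearson correlations of 0.965, 0.963 and 0.959. For Dppa4 they were Ccnt1 (0.995), Wdr47 (0.990) and Nek4 (0.988), for Dppa3 Ptrh2 (0.958), Fam49a (0.956) and Cacul1 (0.953), and for Dppa5a Ssr2 (0.985), Zmiz2 (0.979) and Trip12 (0.978). These are descriptions over 8 points that share media and lines, and the order depended on the measure: over the 20 libraries the closest were Arhgef15, Zswim4, Ccdc136 and Chchd10. Between members the correlation was 0.745 for Dppa2 and Dppa5a, and -0.667 and -0.691 for Dppa3 with Dppa2 and with Dppa5a.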

How the data were processed

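Poly-A-selected, stranded, paired-end RNA-seq of 20 libraries was used. The authors aligned reads to mm10 with STAR and deposited RSEM estimated counts, given as whole numbers, and TPM values per gene. RSEM shares reads among copies of a gene, which can move values between near-identical genes. The versions are not given in the sources used here. Of 54238 rows, 92 were spike-in rows with 0 counts and were left out. Counts of 4 states per medium were fitted together in edgeR 4.0.16 (TMM, quasi-likelihood test, Benjamini-Hochberg over all genes tested) after a filter of 20 counts in all libraries of at least 1 state. All 20 libraries were fitted together for comparisons between media. Calls needed an adjusted p under 0.01 and a fold change over 1.5, following the study's limits. Each fit was first run on simulated counts with known changes, drawn independently and with the same dispersion for every gene. That does not measure error rates at the spread of these libraries. Within states, libraries varied beyond counting noise (chi-square per degree of freedom 4.28 to 28.3). Alternatives were DESeq2 1.42.0, its size factors, limma 3.58.1 on log2(TPM + 1) with a pseudocount of 0.1 tried as well, no filter, a replicate block, other sets of libraries and other limits. In R 4.3.3, levels were given as TMM-scaled CPM. Named genes were the 4 members, their adjacent genes, Esrrb and Nr5a2, at most 4 called genes a list by size of change in −E−N, and the 3 genes most like each member. Genes of a list given with their values although not called, or called beyond those 4, were chosen after their values were seen. Members and lists were chosen with earlier results of these data known. Sample, gene and coordinate annotation came from the labels and GENCODE, in which 54079 of 54146 gene rows were found.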

Additional observations from a re-analysis of the deposited data

Results flagged for a closer look

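The response of Dppa3 to loss of both receptors differed between media. On the log2 scale, the −E−N response in FCS/LIF minus that in 2i/LIF was -3.94, by a test of the difference itself in the fit of all 20 libraries (edgeR adjusted p = 2.03e-05). All 3 −E−N libraries were above all 3 control libraries in 2i/LIF, and both −E−N libraries were below both control libraries in FCS/LIF.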

How the results depend on the processing

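Over 1052 alternative values of 64 member results, 984 kept their direction and side of the limits, 29 lost a call, 23 gained one and 16 turned direction. None of the 19 called results turned direction in 306 alternatives. Of 344 counts of members called, 288 stayed within 1.5 times the main count.

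With limma on log2(TPM + 1) and on log2(TPM + 0.1), 1 member rather than 3 was called in FCS/LIF −E−N, 0 rather than 1 in FCS/LIF −E−N against −N and in the 2i/LIF interaction, and 2 rather than 1 in the medium difference of −E−N. Without a fold limit 3 were called in FCS/LIF −E−N against −N, and in the fit of all 20 libraries 0. In 2i/LIF −E, 1 rather than 0 was called at an adjusted p under 0.05, with DESeq2, without the count filter, with the replicate block and in the fit of all 20 libraries. In 2i/LIF −N, 0 rather than 1 was called in the fit of the compared states alone. In the 2i/LIF interaction 2 passed with DESeq2, at the adjusted p limit of 0.05, without the filter and with all 20 libraries, and 3 with the replicate block. Without the filter 1 rather than 0 was called in the FCS/LIF interaction and 2 rather than 0 in the medium difference of −E. In the medium difference of −N, 1 rather than 0 was called at an adjusted p under 0.05, with DESeq2, without the filter and with the replicate block. In that of −E−N, 2 passed at the adjusted p limit of 0.05, without the filter and with the replicate block. The cause was not tested.

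With each library left out, the counts ran from 0 to 2 in FCS/LIF −E−N against −N and against −E, from 0 to 1 in 2i/LIF −E, 2i/LIF −N, the 2i/LIF interaction and the medium difference of −N, and from 1 to 2 in 2i/LIF −E−N against −N.

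The values that turned direction were not called in any of those fits. With limma, Dppa2 and Dppa4 in FCS/LIF −E were 0.0982 and 0.0481, Dppa5a between control cells was -0.128 and its medium difference of −N was 0.0138. With each library left out in turn, Dppa2 in FCS/LIF −E ran from -0.0524 to 0.0067 and Dppa3 in FCS/LIF −N from -0.0370 to 0.229. The FCS/LIF interaction of Dppa5a ran from -0.273 to 0.0845, Dppa4 in 2i/LIF −N from -0.118 to 0.103 and Dppa5a between control cells from -0.00425 to 0.0752. In the medium difference of −N, Dppa2 ran from -0.0245 to 0.253 and Dppa5a from -0.212 to 0.158.

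The labels do not say what a replicate number marks. Deviations of same-numbered libraries from their group means correlated over 0.1 in 5 of 6 pairs of states in FCS/LIF (0.0216 to 0.333, where 2 replicates give 1 value a pair) and in 16 of 18 library pairs in 2i/LIF (-0.0123 to 0.553). Of the libraries, 8 of 8 in FCS/LIF and 11 of 12 in 2i/LIF correlated best with their own number. This is a hint of pairing from the data, but not every pair passed, so the replicate block was kept as an alternative. It gained 6 member calls and lost 0: Dppa2 in 2i/LIF −E (0.63), Dppa3 in 2i/LIF −E−N against −N (1.44), Dppa4 and Dppa5a in the 2i/LIF interaction (-0.68 and -0.81), Dppa3 in the medium difference of −N (-1.93) and Dppa5a in that of −E−N (0.53). Genes called went from 27 to 264 with DESeq2 and 305 with the block in FCS/LIF −N, from 5 to 63 and 40 in the FCS/LIF interaction, from 223 to 447 and 596 in 2i/LIF −E, from 524 to 860 and 1115 in 2i/LIF −N, from 44 to 303 and 324 in the 2i/LIF interaction, from 171 to 532 and 728 in the medium difference of −E, and from 120 to 456 and 686 in that of −N. In the medium difference of −E−N the block called 3703 genes rather than 2136, and in 2i/LIF −E−N against −N 1622 rather than 970. In FCS/LIF, with 2 libraries a state, each value rests on few libraries.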
